A study of Homo sapiens with 19 samples.

Results

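RNA of the nuclear wash was compared with RNA of the nucleus in K562, an established human erythroleukaemia line that makes fetal and embryonic globins. The comparison used the 4 rRNA-depleted nuclear wash libraries and the 4 nucleus libraries, 8 of the 19 libraries in the series, taken by their labels. The remaining libraries held whole cells, cytoplasm and a wash without rRNA depletion. All cells were of this single line, and no treatment or genetic change is given for any group. The labels do not say what the wash was made with. Nor do they tie replicates to separate cultures, so a p-value here reflects variation among these libraries, which may be technical. Replicates 1 and 2 carry a column name that starts with 1, and replicates 3 and 4 carry one that starts with 2.

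When cells are opened and the nuclei are collected, RNA on the outside of the nucleus can travel with it. The outer nuclear membrane is continuous with the endoplasmic reticulum, where ribosomes that make secreted and membrane proteins dock, and mitochondria and cytoskeleton often stay near it. Inside the nucleus are pre-mRNAs with their introns, RNAs that are kept at speckles, paraspeckles and chromatin, and the small RNAs that guide RNA processing. A wash removes what comes loose from a nucleus, and its RNA can be set against what stays.

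Wash libraries held 3377669, 7165198, 6860720 and 6048191 exon counts of human genes, and nucleus libraries held 1826538, 2275925, 2643131 and 1373755. Gene-body totals were 4274729 to 9551677 in the wash and 4294711 to 8380897 in the nucleus. Mitochondrial 16S rRNA took 17.8 to 26.2% of exon counts in the wash and 4.92 to 9.65% in the nucleus. Of 58051 human genes in the table, 15940 passed the filter on low counts. K562 markers were present in both fractions, as the globin and GATA1 values given further on show. In plain CPM, without TMM factors, the sum over 5 epithelial markers was 657 to 947 CPM in the wash and 223 to 250 CPM in the nucleus, led by keratins. Over 7 fibroblast or endothelial markers it was 271 to 330 CPM in the wash and 157 to 170 CPM in the nucleus. Over 6 lymphoid markers it was 165 to 207 CPM in the wash and 167 to 231 CPM in the nucleus. MS4A1, CD79A and CD2 each had at most 3 counts in total over the 8 libraries.

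The nuclear wash and the nucleus differed in 11490 of 15940 genes tested, or 72.1%, at an adjusted p under 0.05 in edgeR's quasi-likelihood test. In the wash, 5849 genes were higher (36.7%) and 5641 were lower (35.4%). The lower genes had the longer tail: 736 genes were at least 8-fold lower in the wash and 78 were at least 8-fold higher. The 4 wash libraries and the 4 nucleus libraries did not overlap in 9939 genes, or 62.4%. Within replicates 1 and 2 alone 4883 genes were higher and 4934 lower in the wash, and within replicates 3 and 4 alone 5739 were higher and 5610 lower.

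These fold changes are relative to a typical gene and not to an amount of RNA. The median log2 fold change was 0.06 with the TMM scaling used here. It was -0.61 with library totals alone, where 2857 genes were called higher and 8413 lower, 25.4% of calls being higher against 50.9% with TMM. It was -2.45 with library sizes set by the yeast spike-ins, where 20 genes were called higher and 14767 lower. Spike-ins took 3.14 to 4.14% of exon counts in the wash and 0.972 to 1.04% in the nucleus, and the labels do not say to what amount of sample they were added. On that spike-in scale the median of each of the 33 gene lists described here lay below 0. The libraries came from bulk material, so fewer cells that contribute a transcript and less of it per cell cannot be told apart.

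Gene lists, described by their counts and medians without a test of their own, held 935 entries, of which 871 passed the filter on low counts, and counts below are of those. Where a list has 0 members called in a direction, none had an unadjusted p under 0.05 in that direction in edgeR, and DESeq2 called 1, a synthetase.

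The fractions differed widely in intronic RNA. Intronic counts, taken as gene-body minus exon counts outside the mitochondrial genome, made up 27.2, 30.2, 23.5 and 23.2% of gene-body counts in the wash and 73.9, 73.4, 70.0 and 69.7% in the nucleus. The means were 26.0% ± 3.34 in the wash and 71.8% ± 2.21 in the nucleus (SD, n = 4 each), a difference of -45.77 percentage points. Each wash library lay below each nucleus library, in replicates 1 and 2 as in replicates 3 and 4. As shares of exon counts outside mitochondrial and rRNA genes, protein-coding genes took 93.8% ± 0.8 in the wash and 82.1% ± 0.848 in the nucleus, a difference of 11.7 points. Long noncoding genes took 4.54% ± 0.814 in the wash and 14.1% ± 0.878 in the nucleus, a difference of -9.58 points. The fractions did not overlap in any of these 3 shares, and exact two-sided permutation gave an adjusted p of 0.0286 for each of the 3, the smallest that 4 libraries against 4 allow. Paired by replicate number, each gave p = 0.125 in an exact permutation test, the smallest that 4 pairs allow.

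MALAT1, an abundant RNA of nuclear speckles, held much of the noncoding share. It took 2.43, 1.83, 0.592 and 0.572% of exon counts outside mitochondrial and rRNA genes in the wash and 9.17, 9.56, 7.49 and 7.98% in the nucleus. On the same base, long noncoding genes other than MALAT1 took 2.99 to 3.33% in the wash and 5.44 to 5.66% in the nucleus. Genes of snoRNAs and scaRNAs, the guides of RNA modification in nucleoli and Cajal bodies, took 0.0347 to 0.0528% in the wash and 0.16 to 0.289% in the nucleus. All of these were lower in each wash library than in each nucleus library. The 13 mitochondrially encoded mRNAs went the other way, with shares, outside rRNA genes, of 8.21, 6.41, 8.19 and 8.45% in the wash and 2.4, 1.36, 1.59 and 1.64% in the nucleus.

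**Figure D1:**
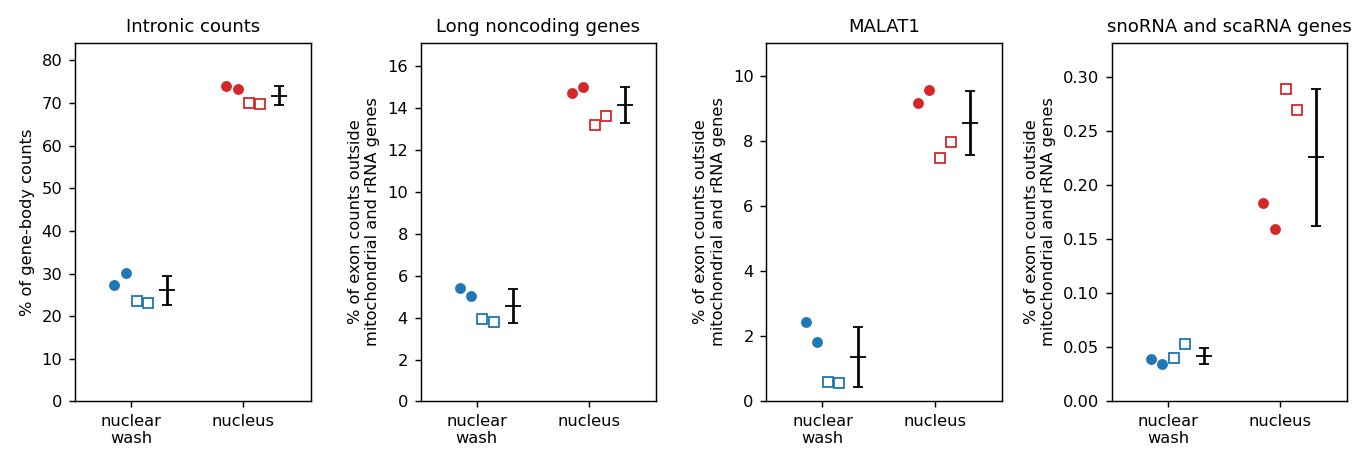
Shares of counts per library in the nuclear wash (blue) and the nucleus (red), each panel on its own linear axis in percent, with exon counts taken outside mitochondrial and rRNA genes. Filled circles are replicates 1 and 2, open squares replicates 3 and 4, and black bars the mean ± SD over 4 libraries. Intronic counts lie at 23.2 to 30.2% in the wash and 69.7 to 73.9% in the nucleus, and no panel has overlapping groups.

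Intronic counts were then tested gene by gene on the scale of the exon counts. Of 14327 genes tested, 13446 were called (93.9%): 289 were higher in the wash (2.02%) and 13157 were lower (91.8%), with a median log2 fold change of -2.37. Exon and intronic counts could both be tested in 11065 genes. Of the 4407 of these called higher in the wash on exons, 4095 were called lower on introns, with a median intronic log2 fold change of -2.28. Of the 3455 called lower on exons, 3349 were also called lower on introns, with a median of -2.62. The wash was thus low in intronic counts of genes whose exon counts were high and of genes whose exon counts were low, as the plot of exon against intronic fold change shows. With scaling factors from the intronic counts themselves, which centre the typical intron at no change, 3348 genes were higher and 3198 lower on introns.

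The next 4 genes were picked for the largest difference between exon and intronic fold change among genes higher on exons and lower on introns. HYOU1, a chaperone of the endoplasmic reticulum, shows the contrast within a gene. Its exon counts were at 651, 566, 794 and 677 CPM in the wash and 178, 175, 219 and 198 CPM in the nucleus (log2 fold change 1.80, SE 0.128, edgeR adjusted p = 1.83e-10), while its intronic log2 fold change was -3.83. B2M, the light chain of class I histocompatibility molecules, was at 267, 353, 459.7 and 428 CPM in the wash and 91.0, 70.1, 95.7 and 86.1 CPM in the nucleus on exons (2.14) and had an intronic log2 fold change of -3.75. SPARC, a secreted glycoprotein of the extracellular matrix, had log2 fold changes of 3.15 on exons and -2.62 on introns. TBL3, a protein of ribosome assembly, had 1.00 on exons and -4.59 on introns. The intronic values of these 4 genes rest on low levels. In the order given, intronic counts averaged 0.453, 0.178, 0.462 and 0.0957 CPM in the wash. The highest of their nucleus averages was 6.18 CPM, in HYOU1. The SEs of the intronic fold changes were 0.3848, 0.7415, 0.6229 and 0.7038 in the same order, so their sizes are uncertain. In each of these 4 genes the exon counts of the wash libraries lay above those of the nucleus libraries without overlap. They were chosen among genes called higher on exons, so that separation is no separate result. Over all genes tested, 62.4% did not overlap.

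**Figure D2:**
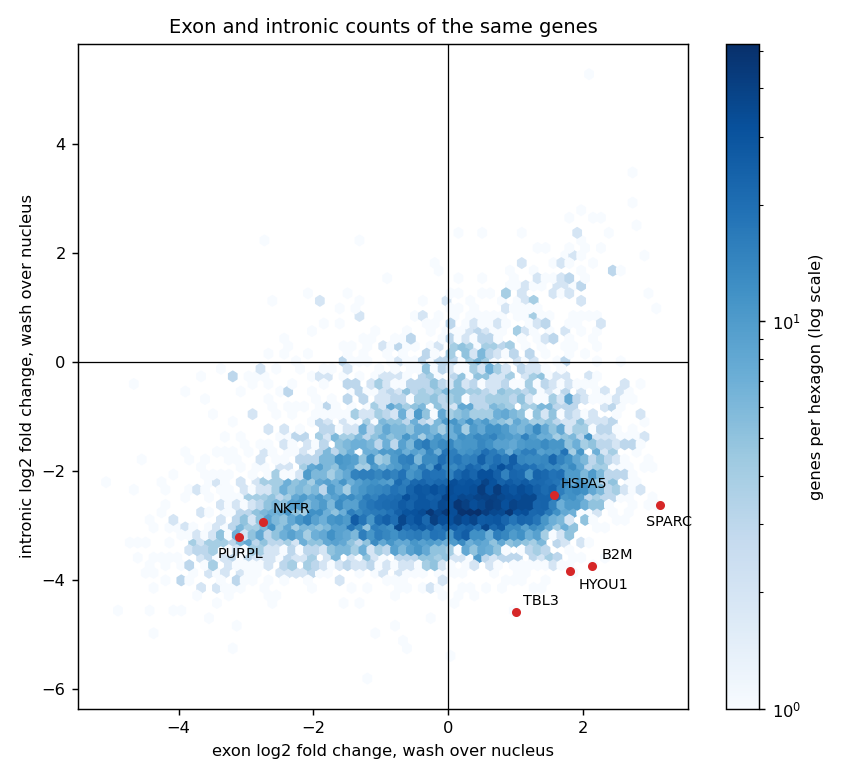
Log2 fold change of nuclear wash over nucleus on exon counts (x axis) and on intronic counts (y axis) for 11065 genes tested on both, as hexagons coloured by the number of genes on a log scale. Red points are 7 named genes. Most hexagons lie below 0 on the y axis on either side of 0 on the x axis, with medians of 0.16 on exons and -2.40 on introns.

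Long noncoding RNAs listed as nuclear were mostly lower in the wash. Of 18 nuclear long noncoding RNAs tested, 15 were lower, 2 were higher and 1 was not called, with a median log2 fold change of -1.44, against 35.4% lower and a median of 0.06 over all genes. MALAT1 was at 21535, 15733, 5032 and 4776 CPM in the wash and 66161, 70127, 50042 and 52486 CPM in the nucleus (log2 fold change -2.34, SE 0.34, edgeR adjusted p = 3.6e-06). Its wash libraries fell into a higher pair, replicates 1 and 2, and a lower pair, replicates 3 and 4, and all 4 lay below the nucleus libraries. The log2 fold change was -1.87 within replicates 1 and 2 and -3.39 within replicates 3 and 4. NEAT1, the scaffold of paraspeckles, was at 725, 788, 741 and 598 CPM in the wash and 1461, 1407, 1689 and 1649 CPM in the nucleus (log2 fold change -1.12, SE 0.125, edgeR adjusted p = 1.01e-07). Its groups did not overlap on exon counts, and with gene-body counts and their own scaling its log2 fold change was 0.00. KCNQ1OT1, an imprinted antisense RNA that coats its chromosomal domain, was at 79.5, 77.8, 36.0 and 44.2 CPM in the wash and 650.0, 659.8, 371 and 361 CPM in the nucleus (log2 fold change -3.11, SE 0.261, edgeR adjusted p = 1.91e-09). PURPL, an intergenic RNA linked to the p53 pathway, was lower by a log2 fold change of -3.10. FGD5-AS1, an antisense transcript, was higher, with a log2 fold change of 0.85. Every listed RNA apart from PURPL overlaps another annotated gene, and the strand setting of the counting is not given, so reads of the partner gene cannot be separated from theirs.

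Long intergenic RNAs outside that list also had large differences. Of 634 lincRNA genes tested, 68 were higher and 410 were lower in the wash, with a median of -1.44. Among noncoding genes that overlap no other gene, LINC01355 was at 5.52, 10.4, 4.28 and 3.89 CPM in the wash and 77.6, 78.4, 74.8 and 69.5 CPM in the nucleus (log2 fold change -3.59, SE 0.263, edgeR adjusted p = 2.89e-10). An unnamed lincRNA gene on chromosome 22, ENSG00000274422, had a log2 fold change of -4.04, and another on the X chromosome, ENSG00000260585, had -3.62. LINC02476 had -3.35. Transcripts annotated as sense intronic, which lie inside introns of other genes, were lower in 195 of 224 and higher in 3. Antisense genes were lower in 671 and higher in 297 of 1481. Of the 312 long noncoding genes that overlap no other gene, 51.3% were lower and 12.2% higher, and of the 2244 that do, 55.5% were lower and 15.7% higher.

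Genes of small guide RNAs were mostly lower in the wash. Of 80 snoRNA genes tested, 76 were lower in the wash (95%) and 0 were higher, with a median of -2.46. None was higher at an unadjusted p under 0.05 in edgeR, and none was called higher in DESeq2. Of 7 scaRNA genes, 6 were lower and 0 higher, with the same counts of 0 by both tools, and of 57 snRNA genes, 42 were lower and 3 higher. SNORA73B, an H/ACA snoRNA also known as U17b that takes part in cleavage of the pre-rRNA, had the highest level of the guide RNAs named here. Its sequence is shown as GENCODE release 29 places it, at chr1:28508559-28508762 on the plus strand of GRCh38, because its class is defined by the motif in capitals, the ACA box that lies 3 bases from the 3′ end.
SNORA73B: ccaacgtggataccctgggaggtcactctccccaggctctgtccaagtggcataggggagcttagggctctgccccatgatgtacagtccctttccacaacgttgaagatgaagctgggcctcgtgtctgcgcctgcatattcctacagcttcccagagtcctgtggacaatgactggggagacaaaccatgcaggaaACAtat
SNORA73B was at 47.1, 50.9, 74.9 and 103 CPM in the wash and 265, 255, 481 and 452 CPM in the nucleus (log2 fold change -2.39, SE 0.28, edgeR adjusted p = 2.1e-07). Both wash and nucleus libraries were higher in replicates 3 and 4 than in replicates 1 and 2, and the fractions did not overlap. It lies in an intron of a host gene, so its reads may include those of the host's pre-mRNA. SCARNA5, a Cajal body RNA, had a log2 fold change of -2.69.

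Of 16 small nuclear and other structured RNAs listed, 10 were lower, 3 were higher and 3 were not called, with a median of -1.22. The 10 that were lower and the 3 not called are genes of snRNAs, snoRNAs or scaRNAs, counted among those classes too. The 3 that were higher, which belong to none of those classes and are named after their values were seen, were RN7SL2, a copy of the RNA of the signal recognition particle, and the Y RNAs RNY1 and RNY3. RN7SL2 was at 486, 286, 588 and 919.8 CPM in the wash and 39.0, 34.4, 51.1 and 59.1 CPM in the nucleus (log2 fold change 3.64, SE 0.324, edgeR adjusted p = 4.38e-09). The level in each wash library exceeded every nucleus library more than 4-fold. The cytoplasm averaged 1831 CPM for RN7SL2. Its locus has near-identical copies, so the count of this copy is uncertain, and RNY1 and RNY3 were at low levels, averaging 1.31 and 4.3 CPM in the wash and 0.068 and 0.606 CPM in the nucleus. With gene-body counts, where RN7SL2 and SNORA73B among others could not be tested, the median of this list was 0.06.

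Host genes of snoRNAs, whose introns carry the guides, went both ways, as genes at large did. Of 20 tested, 5 were higher, 6 were lower and 9 were not called, with a median of 0.11. Over all genes 36.7% were higher and 35.4% lower, with a median of 0.06. The median of the host genes was -0.02 with RLE size factors, -0.55 with library totals alone, -2.39 with spike-ins and 1.05 with gene-body counts. GAS5, a noncoding host whose spliced RNA is degraded by nonsense-mediated decay, was at 165, 117, 117 and 184 CPM in the wash and 811, 736, 967 and 924 CPM in the nucleus (log2 fold change -2.56, SE 0.197, edgeR adjusted p = 5.68e-10). SNHG1 was lower by a log2 fold change of -1.58, and SNHG6 was higher by 0.86 with overlapping libraries.

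mRNAs of splicing regulators known to keep introns were lower in the wash. Of 46 tested, 34 were lower, 6 were higher and 6 were not called, with a median of -0.89 on exons and -2.55 on introns. With gene-body counts the median of this list was -0.12. Among all genes tested 35.4% were lower on exons, with a median of 0.06. NKTR, a cyclophilin-like protein with domains of splicing factors, was at 236, 212, 94.0 and 94.5 CPM in the wash and 1152, 1241, 905 and 939.6 CPM in the nucleus (log2 fold change -2.74, SE 0.24, edgeR adjusted p = 3.53e-09). Replicates 1 and 2 were the higher pair in both fractions, and no wash library reached a nucleus library. PNISR, a serine- and arginine-rich nuclear protein, had a log2 fold change of -2.19. U2AF2, the large subunit of the factor that recognises the polypyrimidine tract, was higher, with 1.19 on exons and -2.44 on introns. Zinc finger proteins, a family of DNA-binding regulators, were lower in 40 of 64, higher in 6 and not called in 18, with a median of -0.64. ZNF410 and ZNF154 had log2 fold changes of -2.65 and -2.58 at levels under 6 CPM in the wash. ZNF281 was higher by 0.84.

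The 8 protein-coding genes named for the lowest fold changes were tied to no single function. They were taken among called genes that average at least 10 CPM and overlap no other annotated gene. The choice also required wash and nucleus libraries that do not overlap in CPM, so their separation is no separate result. OR2B2, annotated as an olfactory receptor gene, was at 2.94, 2.96, 2.67 and 1.84 CPM in the wash and 44.4, 59.8, 32.9 and 36.8 CPM in the nucleus (log2 fold change -4.05, SE 0.229, edgeR adjusted p = 9.94e-12). All 4 nucleus libraries lay above 30 CPM, and all 4 wash libraries lay below 3 CPM. GPM6B, a membrane proteolipid of the nervous system, had a log2 fold change of -3.83, and PGGHG, an enzyme of glycosylated hydroxylysine breakdown, had -3.58. ANKRD36C and ANKRD36, ankyrin repeat genes that are close copies of each other, had -3.48 and -3.46, with reads that may be split between them. RBM41, an RNA-binding protein, had -2.99. CPNE7, a copine, had -2.62, and HFE, the regulator of iron uptake altered in haemochromatosis, had -2.35.

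**Figure D3:**
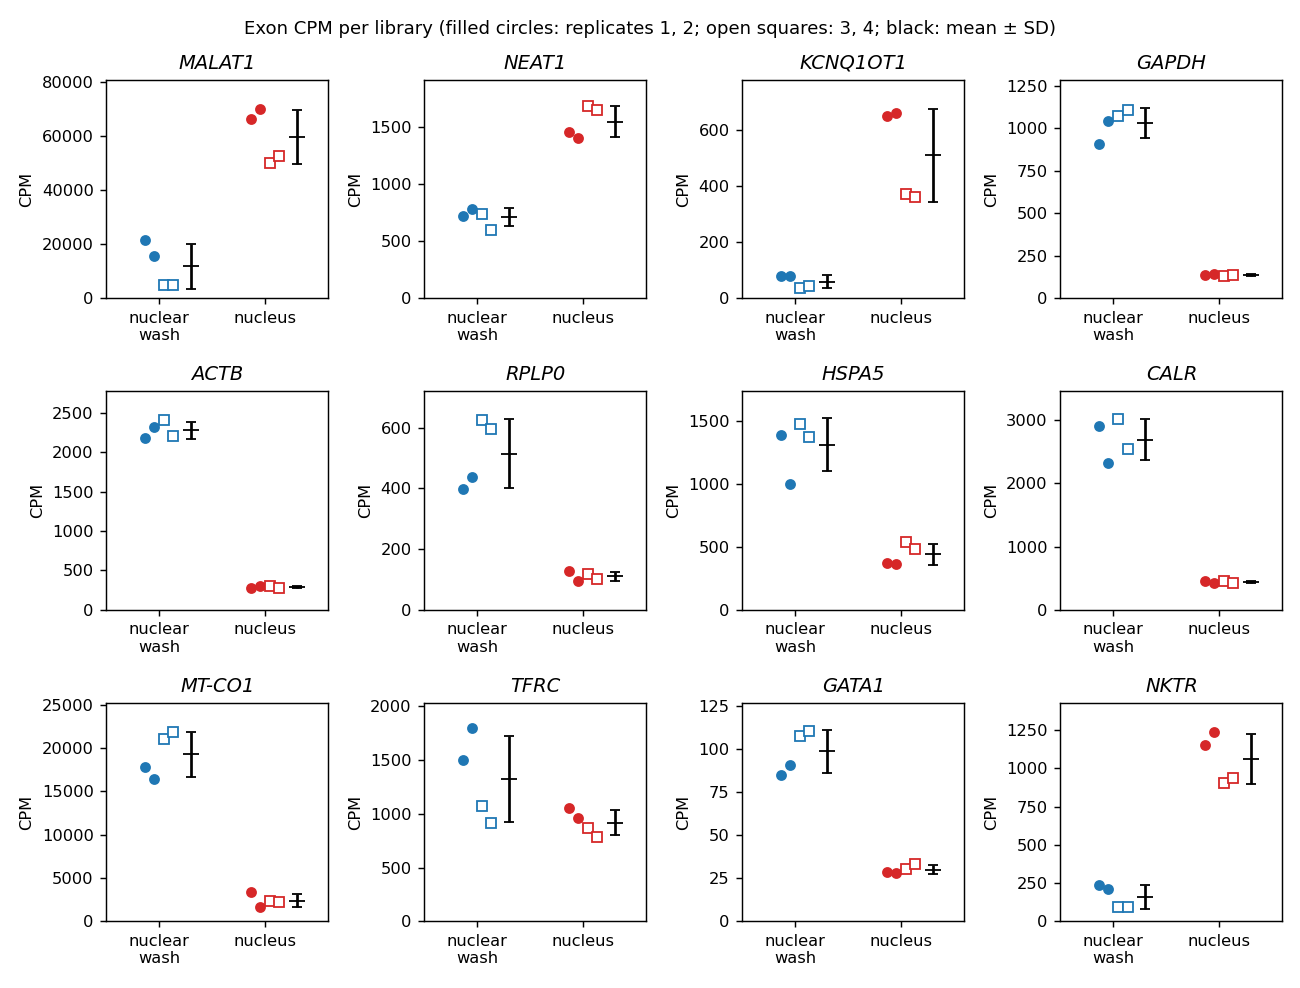
Exon CPM (TMM-scaled, linear axes from 0) of 12 genes in each nuclear wash library (blue) and nucleus library (red). Filled circles are replicates 1 and 2, open squares replicates 3 and 4, and black bars the mean ± SD over 4 libraries. The fractions overlap in TFRC only: MALAT1, NEAT1, KCNQ1OT1 and NKTR are lower and the other 7 genes higher in each wash library.

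mRNAs of abundant cytosolic proteins were higher in the wash relative to the typical gene. GAPDH, a glycolytic enzyme, was at 907, 1043, 1071 and 1107 CPM in the wash and 139.9, 144, 129 and 134 CPM in the nucleus (log2 fold change 2.92, SE 0.129, edgeR adjusted p = 9.51e-13). ACTB, the cytoplasmic actin, was at 2182, 2317, 2414 and 2209 CPM in the wash and 281, 299.7, 297 and 283 CPM in the nucleus (log2 fold change 2.97, SE 0.107, edgeR adjusted p = 6.25e-14). Neither gene's libraries came near overlapping, and the intronic log2 fold changes of GAPDH and ACTB were -2.61 and -2.50. Those rest on low intronic levels, averaging 0.331 and 0.527 CPM in the wash and 2.36 and 3.47 CPM in the nucleus. Of 17 glycolytic enzymes, 14 were higher, 0 were lower and 3 were not called, with a median of 2.00, against 36.7% higher and a median of 0.06 over all genes (-0.60 with spike-ins). The 3 that were not called were the phosphofructokinases PFKL, PFKP and PFKM, named after their values were seen, with log2 fold changes of -0.06, 0.11 and 0.25. ALDOA, an aldolase, had 2.59. Of 25 actins, tubulins and small actin-binding proteins, 23 were higher, 1 was lower and 1 was not called, with a median of 1.95 (-0.61 with spike-ins). TUBA1A, an alpha-tubulin with close paralogs, had 2.90. ARPC4, a subunit of the actin-nucleating Arp2/3 complex that overlaps a neighbour, had -1.20, and 0.95 with gene-body counts.

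Ribosomal protein mRNAs followed the same direction. Of 46 large-subunit genes, 41 were higher, 2 lower and 3 not called, with a median of 1.67 (-0.87 with spike-ins). Of 32 small-subunit genes, 29 were higher, 1 lower and 2 not called, with a median of 1.85 (-0.68 with spike-ins). RPLP0, a protein of the ribosomal stalk, was at 399, 437, 625 and 597 CPM in the wash and 126, 94.2, 119 and 102 CPM in the nucleus (log2 fold change 2.22, SE 0.154, edgeR adjusted p = 1.39e-10). Replicates 3 and 4 were the higher pair in the wash, and all wash libraries lay above the nucleus libraries. RPL35 and RPL8 had log2 fold changes of 2.89 and 2.81, and RPS21 and FAU, whose product is processed to a small-subunit protein, had 2.62 and 2.52. RPL36A and RPS10 were lower, at -1.64 and -0.79, and both overlap other genes. Ribosomal protein genes have many processed copies, so their counts are uncertain. Processed pseudogenes were more often lower than higher in the wash, with 306 higher and 574 lower of 1086. Of these genes 52.9% were lower, with a median of -1.22, against 35.4% and 0.06 over all genes. The pseudogenes named next were picked for the highest fold changes and do not stand for the class. EEF1A1P5, a copy of an elongation factor gene, had 2.95, RPS3AP6 had 2.78, RPL14P1 had 2.61, SETP14 had 2.56 and FAUP1 had 2.5, and their reads may come from the parent genes.

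Other parts of protein synthesis and turnover were also mostly higher. Of 36 translation factors, 31 were higher, 2 lower and 3 not called, with a median of 1.26 (-1.29 with spike-ins). EIF3I, a subunit of the initiation factor that binds the small ribosomal subunit, had a log2 fold change of 2.86, and EIF5A, an elongation factor that carries hypusine, had 2.83. EIF4A1, the initiation helicase, was listed with -3.19 and averaged 2.83 CPM in the wash, but its gene holds snoRNAs and overlaps other genes, so this value is uncertain. Of 20 cytosolic aminoacyl-tRNA synthetases, 15 were higher, 0 lower and 5 not called, with a median of 1.09 (-1.55 with spike-ins), and FARSA and KARS1 had 1.76 and 1.6. Of 32 proteasome subunits, 28 were higher, 2 lower and 2 not called, with a median of 1.36 (-1.19 with spike-ins). PSMB6, a catalytic subunit, had 2.87, ADRM1, a ubiquitin receptor, had 2.03, and PSMA2, which overlaps another gene, had -1.58. All 24 genes of a list of cytosolic chaperones were higher, with a median of 1.64 (-0.85 with spike-ins). The list also holds the mitochondrial HSPD1, HSPE1 and HSPA9. CCT7 of the chaperonin had 2.25, and PTGES3, an HSP90 cochaperone, had 2.05. HSPB1, a small heat shock protein, had 3.19 and was among the 8 protein-coding genes named for the highest fold changes. These were taken under the same conditions as the 8 lowest. MARCKSL1, a membrane-linked actin regulator, and TAGLN2, a transgelin, were also among them, at 2.96 and 2.90.

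Histone mRNAs were mostly higher in the wash. Replication-dependent histones, whose mRNAs end in a stem-loop and have no introns, were higher in 37 of 42, lower in 1 and not called in 4, with a median of 2.03 (-0.50 with spike-ins). H4C3 was at 89.0, 83.9, 165 and 226 CPM in the wash and 8.52, 7.56, 18.2 and 21.8 CPM in the nucleus (log2 fold change 3.34, SE 0.353, edgeR adjusted p = 4.95e-08). Both fractions were higher in replicates 3 and 4 than in replicates 1 and 2, without overlap between fractions. H2AC8 and H2AC17 had log2 fold changes of 2.90 and 2.97, and H2BC6, which overlaps another gene, had -1.69. Replication-independent histones were higher in 5 of 7, lower in 1 and not called in 1, with a median of 1.48 (-1.08 with spike-ins). H2AZ1 and H1-10 had 2.13 and 2.03, and MACROH2A1, a large histone variant with an intron-bearing gene, had -0.92. Histone genes have near-identical copies, so single values are uncertain.

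Genes whose mRNAs are read by ribosomes on the endoplasmic reticulum were mostly higher in the wash. A protein enters the reticulum through a hydrophobic signal near its start, and the first 105 coding bases are shown for 5 such genes and 2 genes of cytosolic proteins to set the signals beside the values. They are read from the longest coding sequence in GENCODE release 29 on GRCh38, 5′ to 3′, and capitals mark the 8 codons whose residues have the highest mean Kyte-Doolittle hydropathy within the first 35. SPARC lies on the minus strand within chr5:151674627-151676188, CALR on the plus strand within chr19:12938680-12939147 and GAPDH on the plus strand within chr12:6534833-6536569, each with an intron in between. SDF2L1 lies at chr22:21642337-21642441 on the plus strand, HSPA5 at chr9:125241022-125241126 on the minus strand, DDOST at chr1:20661297-20661401 on the minus strand and ACTB at chr7:5529553-5529657 on the minus strand.
SPARC: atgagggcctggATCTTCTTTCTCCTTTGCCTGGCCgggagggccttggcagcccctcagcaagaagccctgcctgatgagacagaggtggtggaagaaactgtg
SDF2L1: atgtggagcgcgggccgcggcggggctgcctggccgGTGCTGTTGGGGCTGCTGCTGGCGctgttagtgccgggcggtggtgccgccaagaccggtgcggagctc
CALR: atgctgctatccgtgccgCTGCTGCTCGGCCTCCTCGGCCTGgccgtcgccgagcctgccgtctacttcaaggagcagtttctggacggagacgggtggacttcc
HSPA5: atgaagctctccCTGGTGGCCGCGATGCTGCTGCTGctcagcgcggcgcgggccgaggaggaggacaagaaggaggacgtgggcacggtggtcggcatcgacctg
DDOST: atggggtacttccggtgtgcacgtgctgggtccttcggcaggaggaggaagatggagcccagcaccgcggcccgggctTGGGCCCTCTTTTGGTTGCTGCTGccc
GAPDH: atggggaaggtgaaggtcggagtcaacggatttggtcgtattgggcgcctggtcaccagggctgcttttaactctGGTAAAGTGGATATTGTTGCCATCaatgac
ACTB: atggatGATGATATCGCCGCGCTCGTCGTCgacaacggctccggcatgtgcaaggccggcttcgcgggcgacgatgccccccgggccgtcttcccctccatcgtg
The marked window had a mean hydropathy of 3.22 in SPARC, 3.08 in SDF2L1, 2.75 in CALR, 3.11 in HSPA5 and 2.25 in DDOST, and 1.42 in GAPDH and 1.66 in ACTB. DDOST, a membrane protein of the reticulum, thus lay below the mean of 2.5 used further on to mark a hydrophobic start. Its window lay at residues 27 to 34, at the edge of the 35 searched. Its value therefore depends on that limit and on the coding start taken.

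HSPA5, the main HSP70 chaperone of the reticulum, was at 1387, 1004, 1477 and 1378 CPM in the wash and 374, 366, 540.1 and 486 CPM in the nucleus (log2 fold change 1.57, SE 0.162, edgeR adjusted p = 3.38e-08). CALR, a calcium-binding lectin chaperone, was at 2899.8, 2318, 3009 and 2536 CPM in the wash and 454, 429.9, 457 and 431 CPM in the nucleus (log2 fold change 2.60, SE 0.138, edgeR adjusted p = 4.68e-12). SDF2L1, a cofactor in the folding complex of the reticulum, was at 104, 71.9, 100.4 and 92.5 CPM in the wash and 13.4, 18.6, 14.7 and 7.78 CPM in the nucleus (log2 fold change 2.72, SE 0.233, edgeR adjusted p = 2.57e-09). In all 3 genes each wash library exceeded each nucleus library. SPARC was at 25.4, 29.7, 45.8 and 41.7 CPM in the wash and 2.24, 3.09, 5.98 and 4.15 CPM in the nucleus, again without overlap. Set beside these, the cytoplasm averaged 317 CPM for HSPA5 and 717 CPM for CALR, and 1896 CPM for GAPDH and 2644 CPM for ACTB, values given here without a test. These genes do not stand for their classes. The reticulum genes DAD1 and SEC61G averaged 22.9 and 20.9 CPM in the wash and 33.4 and 35.4 CPM in the cytoplasm. IQGAP1, a cytoskeletal scaffold, averaged 647 CPM in the wash and 42.2 CPM in the cytoplasm. DAD1, SEC61G and IQGAP1 were chosen after their values were seen.

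Of 25 chaperones and folding enzymes of the reticulum, 23 were higher, 0 were lower and 2 were not called, with a median of 1.57 (-0.96 with spike-ins). All 26 genes of the translocon, oligosaccharyltransferase and signal peptidase were higher, with a median of 1.62 (-0.92 with spike-ins). DAD1, a small subunit of the oligosaccharyltransferase, had a log2 fold change of 2.97, and DDOST, another subunit, had 2.53. Of 28 lysosomal proteins, 25 were higher, 0 were lower and 3 were not called, with a median of 1.56 (-1.01 with spike-ins). CTSD, a protease, and PSAP, the precursor of the saposins, had 2.38 and 2.18. Of 30 plasma membrane proteins, 26 were higher, 1 lower and 3 not called, with a median of 1.38 (-1.15 with spike-ins). CD63, a tetraspanin, and BSG, a chaperone of lactate transporters, had 2.5 and 2.45, and GYPB, a glycophorin with close paralogs, had -0.70. TFRC, the transferrin receptor, was at 1497, 1794, 1073 and 918 CPM in the wash and 1055, 959, 867 and 781 CPM in the nucleus (log2 fold change 0.53, SE 0.224, edgeR adjusted p = 0.0399). Its fractions overlapped, and its call was lost with RLE size factors (log2 fold change 0.41), in DESeq2 (0.41), in a fit of the 8 libraries alone (0.39) and without mitochondrial and rRNA genes (0.44). It was -0.13 with library totals alone.

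**Figure D4:**
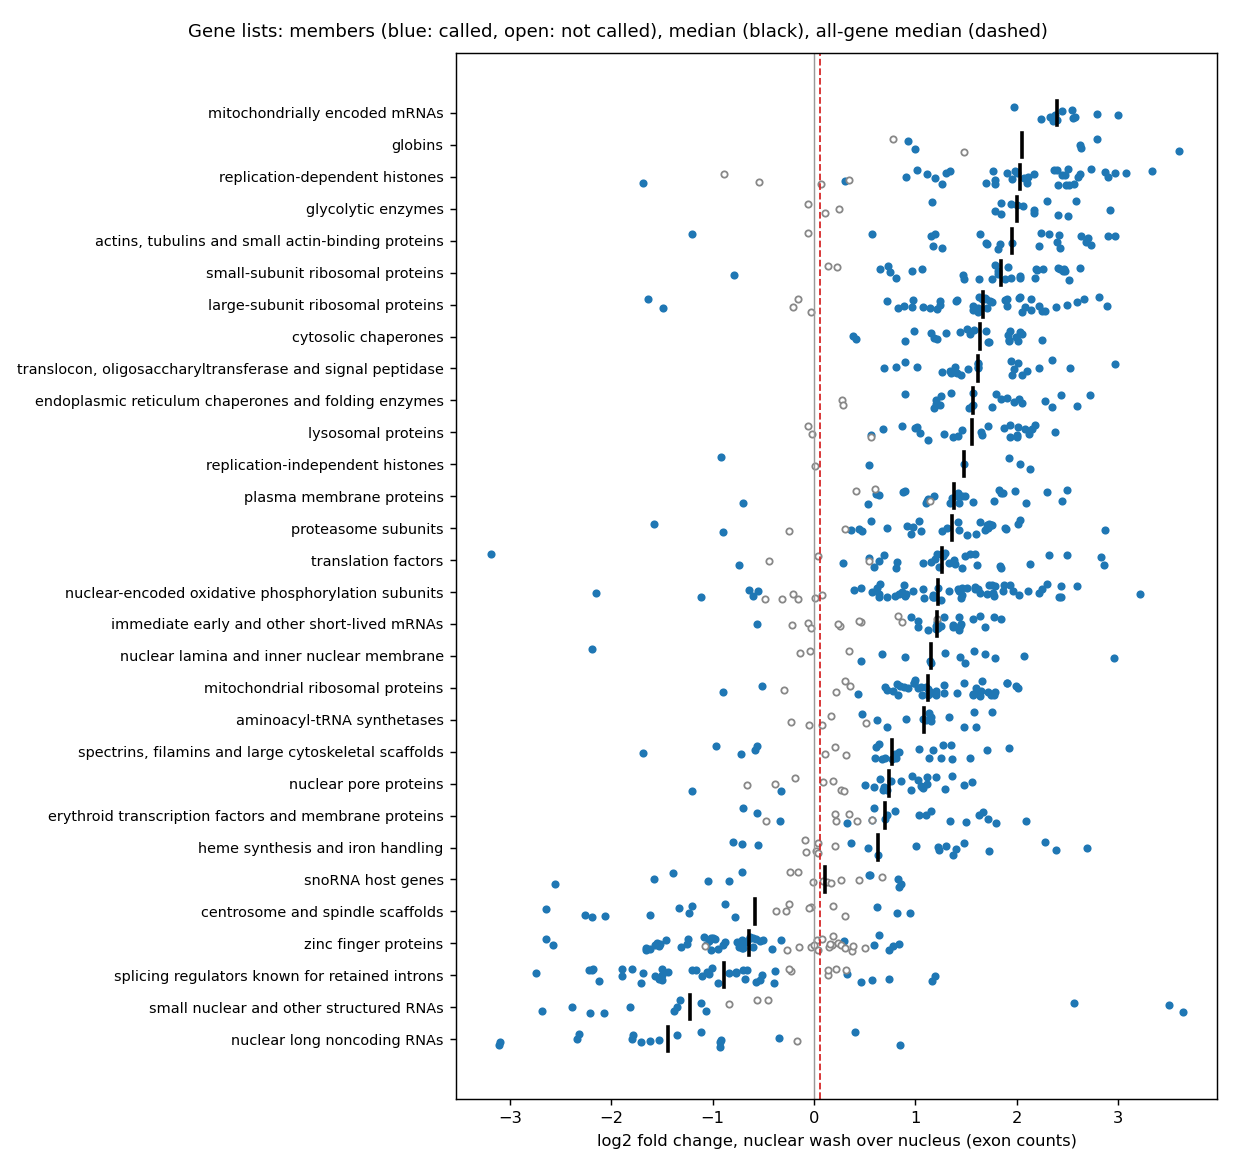
Log2 fold change of nuclear wash over nucleus on exon counts for the members of 30 gene lists, ordered by median. Each circle is a gene, blue where called at an adjusted p under 0.05 and open where not, black bars are list medians, and the dashed line is the median of all 15940 genes at 0.06. Of the lists plotted, mitochondrially encoded mRNAs have a median of 2.40 at one end and nuclear long noncoding RNAs -1.44 at the other. On the spike-in scale the median of every list lies below 0.

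mRNAs of proteins of the nuclear envelope itself were mostly higher in the wash. Of 17 lamina and inner nuclear membrane proteins, 13 were higher, 1 lower and 3 not called, with a median of 1.15 (-1.40 with spike-ins). BANF1, which links chromatin to the envelope, and LMNB2, a B-type lamin, had log2 fold changes of 2.96 and 2.07. Of 30 nuclear pore proteins, 21 were higher, 2 lower and 7 not called, with a median of 0.74 (-1.79 with spike-ins). NUP210 and NDC1, which span the pore membrane, had 1.56 and 1.48. TPR, a long coiled-coil protein of the nuclear basket, was at 628, 451, 199.6 and 241 CPM in the wash and 1036, 1116, 648 and 677 CPM in the nucleus (log2 fold change -1.20, SE 0.259, edgeR adjusted p = 0.000339). Its wash libraries of replicates 1 and 2 were more than 1.5 times those of replicates 3 and 4, and all lay below the nucleus libraries.

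Large scaffold proteins were more mixed than small cytoskeletal ones. Of 27 spectrins, filamins and other large scaffolds, 19 were higher, 5 lower and 3 not called, with a median of 0.77 (-1.79 with spike-ins). DBN1, an actin-binding protein, was at 551, 250.1, 286 and 279 CPM in the wash and 117, 125, 81.0 and 93.4 CPM in the nucleus (log2 fold change 1.71, SE 0.233, edgeR adjusted p = 1.64e-06). Replicate 1 of the wash stood apart from the other 3, which also lay above all nucleus libraries. MYH9, the heavy chain of a nonmuscle myosin, had 1.92, and DST, a giant linker protein, had -1.69. Of 20 centrosome and spindle scaffolds, 3 were higher, 10 lower and 7 not called, with a median of -0.58. Among all genes tested 36.7% were higher and 35.4% lower, with a median of 0.06. Among protein-coding genes with more than 8305 bases of exon sequence, 29.3% were higher and 40.4% lower. Whether length plays a part in the values of these lists was not tested. GOLGA4, a golgin coiled-coil protein, was at 157, 92.5, 37.1 and 40.3 CPM in the wash and 686, 643, 329.6 and 369.9 CPM in the nucleus (log2 fold change -2.65, SE 0.343, edgeR adjusted p = 7.68e-07), and CEP290, of the ciliary base, had -2.26. TPX2, a spindle assembly factor, was higher by 0.95.

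All 13 mitochondrially encoded mRNAs were called higher in the wash, with log2 fold changes of 1.97 to 3.0 and a median of 2.40, which was -0.13 with spike-ins. This median lay close to that of the epithelial markers (2.38), and within replicates 1 and 2 alone it was 2.23, below those of the globins (2.44) and the epithelial markers (2.35). MT-CO1, a core subunit of cytochrome oxidase, was at 17822, 16392, 21063 and 21890 CPM in the wash and 3419.5, 1670.2, 2308 and 2240.4 CPM in the nucleus (log2 fold change 3.0, SE 0.178, edgeR adjusted p = 1.9e-11). Its nucleus library of replicate 1 was the highest of that fraction and lay far below every wash library. MT-CO3, a neighbouring subunit, had 2.79. Of 65 oxidative phosphorylation subunits encoded in the nuclear genome, 54 were higher, 5 lower and 6 not called, with a median of 1.22 (-1.35 with spike-ins). COX8A and NDUFB7 had 3.22 and 2.60, and NDUFV2, which overlaps another gene, had -2.15. Of 47 mitochondrial ribosomal proteins, 41 were higher, 2 lower and 4 not called, with a median of 1.12 (-1.42 with spike-ins). MRPS35 and MRPL10 had 2.01 and 1.99, and MRPS14 had -0.90.

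The erythroid genes of this line were present in both fractions. Of 8 globins, 6 were higher in the wash and 2 were not called, with a median of 2.05 (-0.52 with spike-ins). HBG2, a fetal globin, was at 1224, 1699.6, 2453 and 2511 CPM in the wash and 307, 226, 314 and 296 CPM in the nucleus (log2 fold change 2.79, SE 0.19, edgeR adjusted p = 1.13e-10), and no library overlapped between fractions. HBG1 had a log2 fold change of 0.93, which was -0.71 with gene-body counts, and HBA2, an adult alpha-globin at 12.5 to 59.1 CPM in the wash and 0.344 to 3.63 CPM in the nucleus, had 3.6. Globin genes have close copies between which reads may be split. Of 25 erythroid transcription factors and membrane proteins, 16 were higher, 3 lower and 6 not called, with a median of 0.70 (-1.84 with spike-ins). GATA1, the erythroid master regulator, was at 85.0, 90.7, 108 and 110.5 CPM in the wash and 28.7, 27.8, 30.5 and 33.2 CPM in the nucleus (log2 fold change 1.72, SE 0.145, edgeR adjusted p = 2.01e-09). GYPC and SLC4A1, red cell membrane proteins, had 2.09 and 1.8. Of 23 genes of heme synthesis and iron handling, 14 were higher, 3 lower and 6 not called, with a median of 0.63, which was -0.04 with library totals alone and -1.90 with spike-ins. FTL and FTH1, the ferritin chains, had 2.69 and 2.39, and UROS, an enzyme of heme synthesis, had -0.80.

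Short-lived mRNAs were also more often higher than lower. Of 32 short-lived mRNAs, immediate early ones included, 21 were higher, 1 lower and 10 not called, with a median of 1.21 (-1.36 with spike-ins). CEBPB and JUND, transcription factors with intronless genes, had log2 fold changes of 1.85 and 1.78, and MYB, a progenitor factor, had -0.56. Markers of other cell types that passed the filter were higher too: all 4 epithelial ones with a median of 2.38 (-0.16 with spike-ins) and all 4 fibroblast or endothelial ones with a median of 1.50 (-1.03 with spike-ins). KRT18 and KRT8, keratins, had 2.47 and 2.43, VIM, an intermediate filament, had 2.01, and PECAM1, an adhesion molecule, had 1.70. Of the 2 lymphoid markers tested, PTPRC, a leukocyte phosphatase, was higher by 0.56 and the other was not called, with a median of -0.03. Whether the summed levels of these markers play a part in any result was not tested.

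Over protein-coding genes as a class, short genes were higher in the wash more often than long ones. Of 11310 protein-coding genes tested, 44.7% were higher and 25.9% lower, with a median log2 fold change of 0.32. The genes were split into 5 groups of equal size by the length of their annotated exon sequence. In the shortest group, 312 to 2989 bases, 59.7% were higher and 15.1% lower, with a median of 0.93. In the longest group, above 8305 bases, 29.3% were higher and 40.4% lower, with a median of -0.18. The 3 groups between them had medians of 0.48, 0.33 and 0.13. Spearman's rho across genes between exon length and fold change was -0.30 (n = 11297), and it was -0.24 for gene span, -0.28 for protein length (n = 11267) and -0.27 for the number of exons. Genes share libraries and annotation and are not replicates, so these values describe these libraries. The median was 1.24 in genes with 1 exon, 0.93 with 2 to 3, 0.59 with 4 to 7, 0.26 with 8 to 15 and -0.05 with 16 or more. Length of the untranslated 3′ end showed no such gradient, with medians of 0.27 to 0.36 over 5 groups by its length and a rho of 0.02.

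Hydrophobic stretches of the proteins were set beside length. Proteins were grouped by an 8-residue window of mean hydropathy of at least 2.5 within the first 35 residues and by a 19-residue window of at least 2.0 beyond them. Genes with the first kind alone were higher in the wash in 50.6% of 799, and genes with both in 52.3% of 629. Genes with the second kind alone were higher in 45.3% of 1137, and those with neither in 43.4% of 8702. Among proteins of up to 350 residues these shares were 56.2, 54.9, 54.0 and 57.0% in the same order. Among proteins of 351 to 631 residues they were 54.4, 53.3, 47.7 and 40.7%. Among longer proteins they were 33.9, 48.5, 35.2 and 33.0%. Among short proteins the 4 groups thus lay close together in the share called higher. In the middle range both groups with a hydrophobic start were higher more often than the other two. Among longer proteins the group with both kinds stood above the rest, and genes with a hydrophobic start alone lay close to those with neither. These shares are descriptions without a test. The rank correlation of the best early window with fold change across all genes was 0.04.

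**Figure D5:**
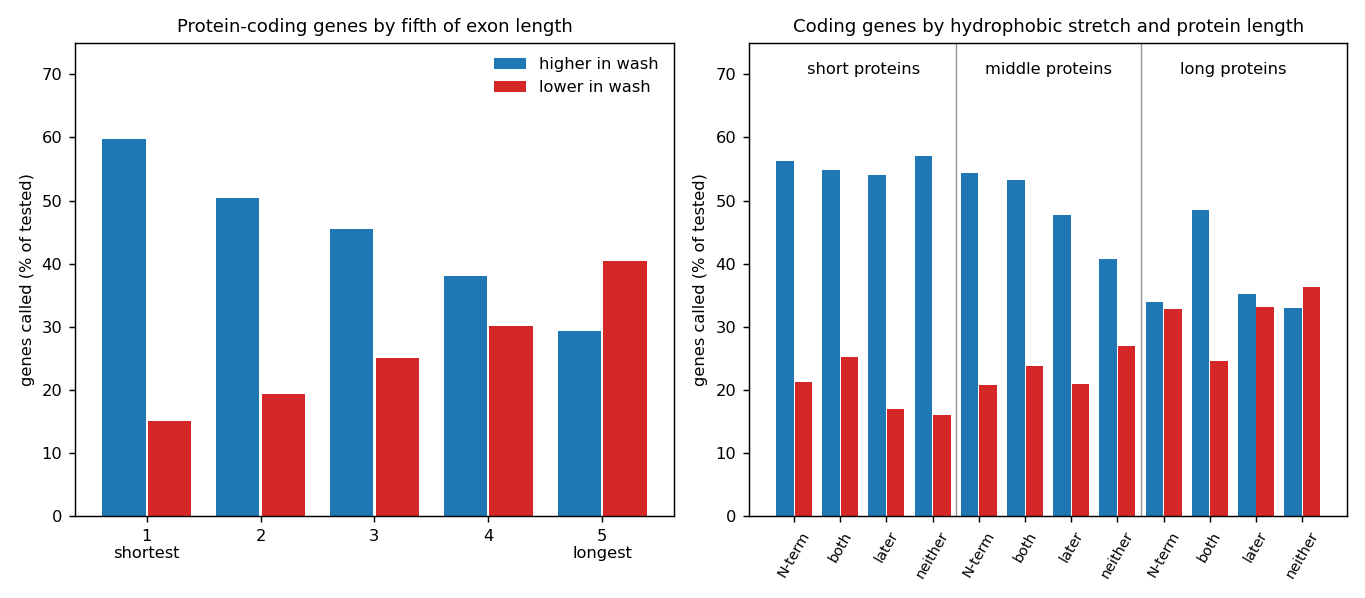
Percent of protein-coding genes called higher (blue) or lower (red) in the nuclear wash than in the nucleus, by group of exon length (left) and by hydrophobic stretch within 3 ranges of protein length (right), on linear axes from 0. In the right panel N-term means a hydrophobic window within the first 35 residues only, later a window beyond them only, both means the pair, and neither means none. Of the longest genes 29.3% were called higher, and of the shortest 59.7%.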

How the data were processed

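K562 fractions were sequenced as total RNA with yeast spike-ins, and rRNA was depleted with a stranded SMARTer kit, per the labels' protocols. The authors deposited raw read counts per gene over exons and over gene bodies, without normalization. Build hg38, featureCounts 1.6.2, STAR 2.7.0a and cutadapt 2.5 appear in the submitters' processing notes. The strand setting and the handling of shared reads were not given in the sources used here. Of 58051 identifiers, 57447 were found in GENCODE release 29, and of 15940 genes tested 11728 overlap another gene, so their counts are uncertain.

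Exon counts of the 16 depleted libraries entered a quasi-likelihood fit in edgeR 4.0.16 (R 4.3.3), with a term per fraction, filterByExpr, TMM and Benjamini-Hochberg adjustment over all genes, and calls at an adjusted p under 0.05. The 8 wash and nucleus libraries gave the contrast, and the other fractions entered for the estimate of the spread. CPM values are counts scaled with TMM factors, spike-ins left out. The same fit was made on gene-body minus exon counts with exon library sizes, leaving out 37 mitochondrial genes and 5974 genes whose gene-body count was under the exon count in any library. Such counts can hold exon reads of genes that lie in introns. Shares were compared by exact permutation over libraries in SciPy 1.17.1. No molecular identifiers are mentioned, so PCR copies cannot be told from molecules. Scripts were tested on simulated data.

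Genes are named by a rule. It takes the 8 protein-coding and 5 other genes with the largest fold change each way among called genes of at least 10 CPM whose fractions do not overlap and that overlap no other gene. It adds 2 called members per list in the main direction and 1 the other way at 5 CPM or more, landmark genes, and genes higher on exons with the lowest intronic fold changes. The members, lists, landmarks and rule were chosen with earlier results of these data known. Hydropathy was computed on the longest GENCODE coding sequence of 11267 of 11297 genes (99.7%), in place of RefSeq proteins as first planned.

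Replicate numbers are shared across fractions. Deviations from group means correlated between same-numbered wash and nucleus libraries (r = 0.182, 0.223, 0.297 and 0.233 across genes), so the numbers were taken to pair the libraries, although other pairs within replicates 1 and 2 or within 3 and 4 correlated alike (0.214 to 0.287). No replicates agreed within sampling noise, the closest being nucleus replicates 3 and 4 with a chi-square per degree of freedom of 1.19. Alternatives were RLE size factors, library totals, spike-in sizes, no filter, DESeq2 1.42.0, the 8 libraries alone, gene-body counts, no mitochondrial or rRNA genes, a replicate block, each pair of replicates, and each library left out.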

Additional observations from a re-analysis of the deposited data

Results flagged for a closer look

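Among 240 sets of 4 library values, 8 (3.33%) held a library whose gap to its nearest neighbour was large for the range of its group, where chance alone gives about 1 in 20. In the wash these were DBN1 in replicate 1 at 550.8 CPM, MACROH2A1 in replicate 3 at 166.4 CPM, LMNB2 in replicate 3 at 142.8 CPM and GYPB in replicate 2 at 16.03 CPM. In the nucleus they were MT-CO3 in replicate 1 at 738.8 CPM, PGGHG in replicate 2 at 45.36 CPM, PSMA2 in replicate 1 at 26.0 CPM and PECAM1 in replicate 3 at 17.13 CPM. DBN1 had a log2 fold change of 1.42 without that library and 1.71 with it.

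The difference between wash and nucleus itself differed between the pairs of replicates for MALAT1 and NKTR. For MALAT1 the log2 fold change was -1.87 in replicates 1 and 2 and -3.39 in replicates 3 and 4, a difference of 1.51 (edgeR interaction term, adjusted p = 0.00162). Its wash level was at 21535 and 15733 CPM in replicates 1 and 2 and at 5032 and 4776 CPM in replicates 3 and 4. For NKTR it was -2.42 and -3.30, a difference of 0.87 (edgeR interaction term, adjusted p = 0.0249). Both were lower in the wash in both pairs.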

How the results depend on the processing

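Most calls of named genes kept direction and threshold outside the scaling changes. Of 117 named genes, 116 did so with RLE size factors, in DESeq2 and in the 8 libraries alone, TFRC being the exception in each. With spike-ins 46 kept their call and 71 did not, 31 of them called in the other direction and 40 not called. With library totals 109 kept it and 8 were not called. With gene-body counts 11 could not be tested, 98 kept their call, 6 were not called and 2 were called in the other direction. Without the filter 2 (RPS10 and GYPB) were not called. With 1 library left out, 11147 to 12044 genes were called, 5516 to 6059 higher and 5591 to 5985 lower, against 11490, 5849 and 5641. TFRC was lost without wash replicate 1 (0.5) or 2 (0.37) or nucleus replicate 2 (0.53), 3 (0.49) or 4 (0.44), and RPS10 without wash replicate 3 (-0.62) or 4 (-0.68) or nucleus replicate 1 (-0.56). With a replicate block 11955 genes were called, 6109 higher and 5846 lower, and no call of a named gene changed. In the paired exact permutation test the intronic, protein-coding and long noncoding shares differed by -45.77, 11.7 and -9.58 points (p = 0.125 each). With 1 library left out they differed by -47.17 to -44.82, 11.43 to 12.01 and -9.91 to -9.29 points, with p = 0.0571 in the exact permutation test, the smallest that 4 against 3 allow. Low exon counts in the nucleus (1373755 to 2643131) limit genes of few counts.

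With library totals alone 2857 genes were higher, and PTPRC (-0.12), TFRC (-0.13) and the medians of snoRNA host genes (-0.55) and of heme and iron genes (-0.04) turned. With RLE size factors the median of snoRNA host genes was -0.02. With gene-body counts, which are scaled anew, ARPC4 (0.95), NEAT1 (0.0), HBG1 (-0.71) and the medians of structured RNAs (0.06) and lymphoid markers (0.14) turned, and within replicates 1 and 2 that of lymphoid markers was 0.09. With TMM factors of the intronic counts, 3348 genes were higher and 3198 lower on introns. With spike-in library sizes 20 genes were higher and 14767 lower. The log2 fold changes that turned with spike-ins were PTPRC -1.99, TFRC -1.94, SNHG6 -1.7, FGD5-AS1 -1.69, ZNF281 -1.65, TPX2 -1.62, HBG1 -1.59, TBL3 -1.52, U2AF2 -1.37, NDC1 -1.04, HSPA5 -1.01, NUP210 -1.0, KARS1 -0.93, PECAM1 -0.86, GATA1 -0.85, DBN1 -0.8, SLC4A1 -0.8, CEBPB -0.79, FARSA -0.79, JUND -0.78, HYOU1 -0.77, MYH9 -0.62, MRPL10 -0.6, H1-10 -0.6, MRPS35 -0.55, VIM -0.52, ADRM1 -0.51, GYPC -0.5, PTGES3 -0.48, LMNB2 -0.47, H2AZ1 -0.45, B2M -0.44, PSAP -0.42, RPLP0 -0.35, CCT7 -0.3, FTH1 -0.24, CTSD -0.19, BSG -0.12, FAUP1 -0.12, KRT8 -0.11, KRT18 -0.09, FAU -0.09, CD63 -0.08, DDOST -0.05 and ALDOA -0.01. Of list medians these were snoRNA host genes -2.39, heme synthesis and iron handling -1.9, erythroid transcription factors and membrane proteins -1.84, spectrins, filamins and large cytoskeletal scaffolds -1.79, nuclear pore proteins -1.79, aminoacyl-tRNA synthetases -1.55, mitochondrial ribosomal proteins -1.42, nuclear lamina and inner nuclear membrane -1.4, immediate early and other short-lived mRNAs -1.36, nuclear-encoded oxidative phosphorylation subunits -1.35, translation factors -1.29, proteasome subunits -1.19, plasma membrane proteins -1.15, replication-independent histones -1.08, fibroblast or endothelial markers -1.03, lysosomal proteins -1.01, endoplasmic reticulum chaperones and folding enzymes -0.96, translocon, oligosaccharyltransferase and signal peptidase -0.92, large-subunit ribosomal proteins -0.87, cytosolic chaperones -0.85, small-subunit ribosomal proteins -0.68, actins, tubulins and small actin-binding proteins -0.61, glycolytic enzymes -0.6, globins -0.52, replication-dependent histones -0.5, epithelial markers -0.16 and mitochondrially encoded mRNAs -0.13. The cause of these shifts was not tested beyond the change of scale.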

Other observations

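The size of the difference between wash and nucleus was compared between replicates 1 and 2 and replicates 3 and 4 across all genes, in an edgeR fit with fraction by replicate-pair terms added after the data had been seen. Of 15940 genes, 25 were called, 19 with the higher fold change in replicates 1 and 2 and 6 with the lower one, and 1632 had an unadjusted p under 0.05. Examples of the 19, chosen after their values were seen, follow. RANBP2, the large SUMO ligase of the nuclear pore, was at 577, 597, 164 and 164 CPM in the wash and 731, 743, 468 and 432 CPM in the nucleus. Its log2 fold change was -0.33 in replicates 1 and 2 and -1.46 in replicates 3 and 4 (edgeR adjusted p = 0.00197 for the difference). KNL1, a kinetochore scaffold, had -0.41 and -1.45 in the same pairs, ASPM, a spindle pole protein, had -1.38 and -2.20, CEP295, a centriole protein, had -1.73 and -2.79, and APC, a tumour suppressor that regulates beta-catenin, had -0.29 and -1.28. In each of these 5 genes the wash libraries of replicates 1 and 2 were more than 2-fold above those of replicates 3 and 4.

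The ribosomal protein genes RPS12 and RPL34 were among the 6 that went the other way. RPS12 was at 286, 253, 362 and 345 CPM in the wash and 109, 105, 65.0 and 74.2 CPM in the nucleus, with log2 fold changes of 1.33 in replicates 1 and 2 and 2.35 in replicates 3 and 4 (edgeR adjusted p = 0.0185 for the difference). RPL34 had 0.68 and 1.62. Both were chosen after their values were seen. What sets the pairs of replicates apart is not given in the labels, and its part in these values was not tested.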
